A study of Homo sapiens with 6 samples.

Results

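The genes described here are the 8 human genes that encode BH3-only proteins: BCL2L11, BBC3, PMAIP1, BID, BAD, BIK, BMF and HRK. They are a family defined by name: their products share the short BH3 motif and lack the other homology regions of the BCL2 family. The rule uses no measured value, although the family was picked with earlier results of these data known. All 8 were found among 60483 genes counted by RNA-seq, and 7 of them were among the 16198 genes with enough reads to be tested; BIK was not. The study compared A2780, a human ovarian carcinoma cell line, with a knock-out (KO) of the transcription kinase CDK12 in the same line. WT stands for the parental cells (3 libraries) and CDK12 KO for a single clone (3 libraries). The clone was derived with CRISPR/Cas9 aimed at exon 1 of CDK12, in successive rounds of transfection and single-cell cloning. The study reports a higher DNA content and chromosome number in the clone than in the parental cells, and their part was not tested. Both groups were grown in the same serum-containing medium and no drug treatment is given for any library. Because the KO is 1 clone, the effects of losing CDK12 and of the selection of that clone cannot be told apart, and the labels do not say whether the 3 libraries of a group came from separate cultures, so p-values may measure technical spread only.

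BH3-only proteins are the sensors of the mitochondrial pathway of apoptosis. Each is held back or made in response to its own kind of stress, and once active it fits its BH3 helix into a groove on the survival proteins (BCL2, BCL2L1, BCL2L2, MCL1 and their relatives), which releases the effectors BAX and BAK1 to open the outer mitochondrial membrane. Some members, such as BCL2L11 and BID, can also bind the effectors directly. Because several members are controlled mainly by cleavage, phosphorylation or degradation of the protein, an mRNA level is only part of their regulation.

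The motif after which the family is named is shown for all 8 genes because all of them hold it. The core pattern is not particular to them, since a match was also found in the survival proteins BCL2, BCL2L1 and MCL1 and in the effectors BAX, BAK1 and BOK. Each line holds 48 coding bases of the MANE Select transcript on GRCh38, printed 5′ to 3′ on the coding strand. The capitals mark the 18 bases that encode the 6-residue core, a leucine, any 3 residues, a small residue (glycine, alanine or serine) and an aspartate.
BCL2L11: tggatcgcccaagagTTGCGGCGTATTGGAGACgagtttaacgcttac
BBC3: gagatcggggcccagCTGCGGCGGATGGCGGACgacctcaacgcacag
PMAIP1: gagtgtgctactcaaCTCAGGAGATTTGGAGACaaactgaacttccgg
BID: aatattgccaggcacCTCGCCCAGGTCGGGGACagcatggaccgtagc
BAD: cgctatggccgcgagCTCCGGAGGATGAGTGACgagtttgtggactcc
BIK: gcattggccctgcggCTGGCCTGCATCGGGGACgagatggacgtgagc
BMF: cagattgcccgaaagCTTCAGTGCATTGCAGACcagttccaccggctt
HRK: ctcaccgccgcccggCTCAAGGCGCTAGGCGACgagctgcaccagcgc

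The small residue of the core was glycine in 5 members (BCL2L11, PMAIP1, BID, BIK and HRK), alanine in 2 (BBC3 and BMF) and serine in 1 (BAD). Of the 18 core bases, 13 were identical between BCL2L11 and BBC3, and 8 between BCL2L11 and HRK. The stretches lay at chr2:111150088-111150135 on the plus strand in exon 3 of 4 of BCL2L11, at chr19:47226576-47226623 on the minus strand in exon 3 of 4 of BBC3, and at chr12:116881167-116881214 on the minus strand in exon 1 of 2 of HRK. Those of PMAIP1 (chr18:59902658-59902705, plus strand, exon 2 of 2), BID (chr22:17739412-17739459, minus strand, exon 4 of 6), BAD (chr11:64271619-64271666, minus strand, exon 3 of 4), BIK (chr22:43127701-43127748, plus strand, exon 3 of 5) and BMF (chr15:40104192-40104239, minus strand, exon 4 of 5) each lay within 1 coding exon. BID held 2 matches to the core pattern, and the later one is printed. The encoded proteins ranged from 54 residues in PMAIP1 to 198 in BCL2L11.

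In the CDK12 KO clone the mRNAs of BCL2L11, BBC3 and HRK rose 2.97-, 2.82- and 2.24-fold over WT, and no member fell past the same limits. A gene is called up-regulated at an adjusted p under 0.05 with a log2 fold change above 1, the limits of the study's methods. By that rule 3 of the 7 tested members were up-regulated and 0 were down-regulated, where 8.30% and 7.73% of all 16198 tested genes were. At an adjusted p under 0.05 alone, 4 members were higher (31.9% of all tested genes were) and 1 was lower (32.0% of all genes). The median log2 fold change was 0.85 over the 7 tested members and 0.000443 over all tested genes, whose quartiles were -0.30 and 0.34. With bulk RNA, less RNA per cell and fewer cells carrying it cannot be told apart for any of these genes.

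The 6 libraries held 11098400 to 30899045 counts, the smallest being WT replicate 3. A floor of 3 counts corresponded to 0.0971 to 0.270 CPM (counts per 1000000 counted reads) across libraries. The mitochondrial share of counts was 7.42% to 8.85%. CDK12 itself was still counted in the clone, at 2432, 2504 and 1818 counts against 2831, 3759 and 1294 in WT, a log2 fold change of -0.23 (SE 0.0582, edgeR's quasi-likelihood test, Benjamini-Hochberg adjusted p = 8.2e-04). A count per gene does not show a small edit in exon 1, so this level does not check the knock-out. Of 10 ovarian epithelial markers 6 had too few reads to test, PAX8, MUC16, KRT7 and CDH1 among them with at most 6 counts in any library, while KRT18 lay at 58.1 to 62.0 CPM in WT and 101 to 106 CPM in the clone. Of the 4 tested, KRT8, KRT18 and MUC1 were higher in the clone and EPCAM was lower (log2 fold change -0.54) at an adjusted p under 0.05, though EPCAM lost the call without WT replicate 1 (edgeR, Benjamini-Hochberg adjusted p = 0.217). Of 7 tested fibroblast markers 5 (COL1A1, DCN, LUM, PDGFRA and PDGFRB) were down-regulated, where 7.73% of all tested genes were. DCN and LUM were scarce, with at most 23 and 20 counts in a library. COL1A2 fell by 0.80 on the log2 scale, from a mean of 4577 CPM in WT to 2623 CPM in the clone, short of the fold limit. COL3A1 was abundant in both groups (5850 to 6167 CPM) and did not pass the test. The fibroblast list summed to 11110 to 11480 CPM in WT and 8544 to 8824 CPM in the clone, and its part in the results below was not tested. Blood cell markers summed to at most 1.15 CPM in any library, with HBA1 at 0, and CD14, the only one tested, reached at most 26 counts in a library. CD14 was up-regulated (log2 fold change 1.02) but lost that call with voom/limma, with DESeq2, without WT replicate 2 and without KO replicate 2.

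**Figure D1:**
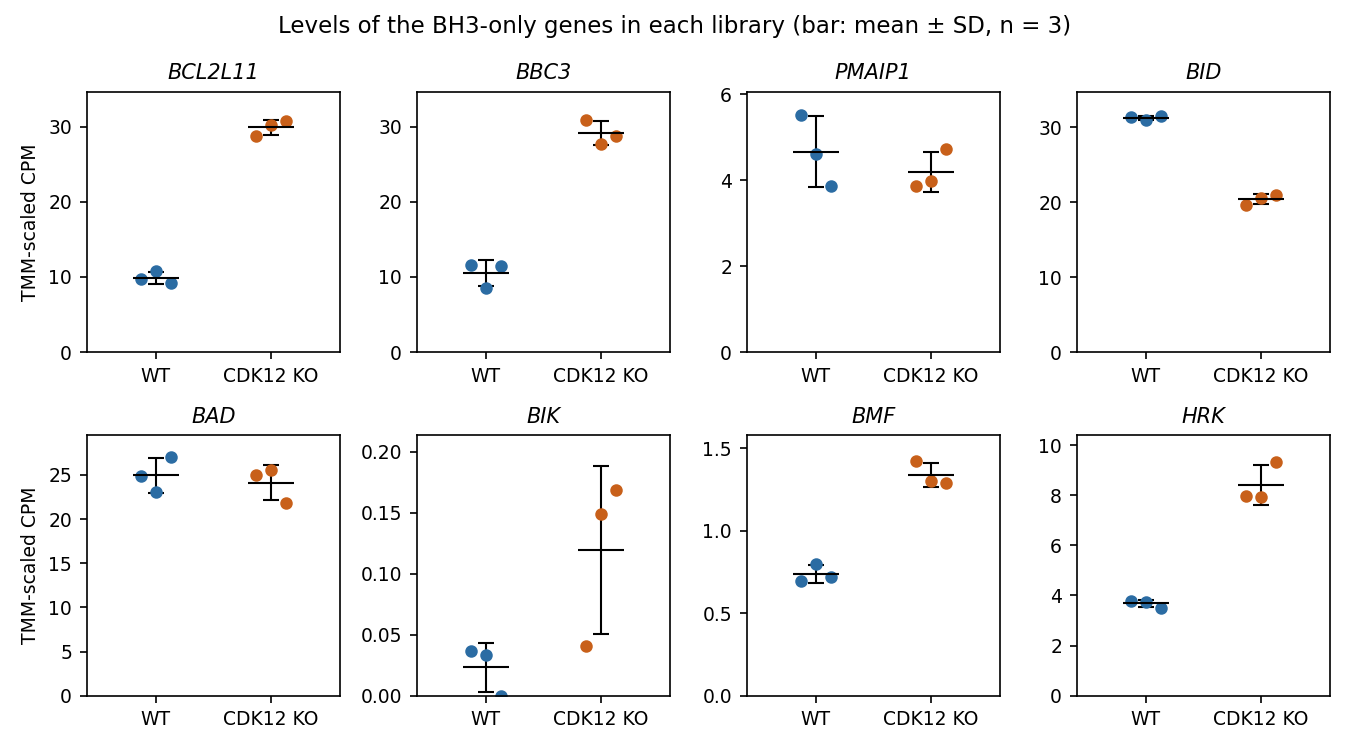
Each panel plots 1 BH3-only gene, with TMM-scaled CPM on the y axis (from 0, scaled per gene) and the WT and CDK12 KO libraries as points; bars are the mean ± SD of 3 libraries. The KO points lie above every WT point for BCL2L11, BBC3, BMF and HRK, below them for BID, and overlap them for PMAIP1 and BAD, while BIK has at most 4 counts in a library.

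BCL2L11 encodes BIM, a potent activator that binds every major survival protein and that cells induce on loss of growth factor signals. The gene (ENSG00000153094) spans chr2:111119378-111168444 on the plus strand. It was counted 265, 324 and 102 times in WT replicates 1 to 3 and 707, 812 and 548 times in the KO libraries. Scaled by TMM, edgeR's correction of library sizes, these were 9.67, 10.8 and 9.19 CPM in WT and 28.8, 30.2 and 30.8 CPM in the clone. The clone's lowest library was well above the highest WT library. The log2 fold change was 1.57 (SE 0.0781, 95% interval 1.41 to 1.73), with a Benjamini-Hochberg adjusted p of 4.87e-18 by edgeR's quasi-likelihood test. It was the largest change among the 7 tested members, and its size exceeded that of 90.8% of all tested genes.

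BBC3 encodes PUMA, the p53-induced member that also binds every major survival protein. It lies at chr19:47220822-47232766 on the minus strand (ENSG00000105327). WT libraries had 316, 257 and 128 counts, or 11.5, 8.58 and 11.5 CPM, and KO libraries 760, 746 and 512 counts, or 30.9, 27.7 and 28.8 CPM. WT replicate 2 was the lowest library, and every KO library was above every WT library. BBC3 rose by a log2 fold change of 1.50 (SE 0.0893, 95% interval 1.31 to 1.68; edgeR's quasi-likelihood test, Benjamini-Hochberg adjusted p = 6.63e-16). In WT cells BCL2L11 and BBC3 were counted at similar CPM, and they remained so in the clone.

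HRK encodes Harakiri, a small member known from neurons that binds BCL2L1 in particular. It lies at chr12:116856144-116881441 on the minus strand (ENSG00000135116). Its counts were 104, 112 and 39 in WT and 196, 213 and 166 in the clone, which are 3.80, 3.74 and 3.51 CPM against 7.98, 7.91 and 9.33 CPM. The groups did not overlap, and KO replicate 3 was the highest library. The log2 fold change was 1.16 (SE 0.121, 95% interval 0.92 to 1.41), with a Benjamini-Hochberg adjusted p of 5.44e-10 in the edgeR test. Its interval reaches below 1, and in edgeR's test against a log2 fold change of 1, HRK had an adjusted p of 0.247. BCL2L11 and BBC3 passed that stricter test, with adjusted p of 4.19e-08 and 5.25e-06 by edgeR after Benjamini-Hochberg adjustment.

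BMF encodes a member that is bound to the motor complexes of the cytoskeleton and is known from the death of detached cells. It lies at chr15:40087890-40108892 on the minus strand (ENSG00000104081) and was scarce, with 19, 24 and 8 counts in WT and 35, 35 and 23 counts in the clone. The levels were 0.693, 0.801 and 0.720 CPM in WT and 1.42, 1.30 and 1.29 CPM in the clone, with no overlap between the groups. The log2 fold change of 0.85 (SE 0.248, 95% interval 0.34 to 1.35) had a Benjamini-Hochberg adjusted p of 0.00362 in the edgeR test. BMF thus rose at the p limit without reaching the fold limit. Its interval was the widest of the 7 tested members and includes both a small change and a change past that limit. When the larger libraries were thinned to the depth of the smallest, the log2 fold change was 1.36.

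BID, which caspase-8 cleaves to carry the death receptor signal to mitochondria, was the only member that fell. It lies at chr22:17734138-17774770 on the minus strand (ENSG00000015475). WT libraries had 858, 929 and 350 counts and KO libraries 483, 552 and 373 counts. The levels were 31.3, 31.0 and 31.5 CPM in WT and 19.7, 20.5 and 21.0 CPM in the clone. Each group was tight, and all KO libraries were below all WT libraries. BID fell by 0.62 on the log2 scale (SE 0.0659, edgeR's quasi-likelihood test, Benjamini-Hochberg adjusted p = 8.82e-10), which is 1.54-fold lower and short of the fold limit.

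BAD encodes a member that survival kinases such as AKT phosphorylate, so that 14-3-3 proteins hold it away from BCL2, BCL2L1 and BCL2L2. It lies at chr11:64269830-64284704 on the minus strand (ENSG00000002330). Its levels were 24.9, 23.1 and 27.0 CPM in WT (681, 691 and 300 counts) and 24.9, 25.5 and 21.9 CPM in the clone (613, 687 and 389 counts). The groups overlapped, with the highest value in WT replicate 3 and the lowest in KO replicate 3. The log2 fold change was -0.02 (95% interval -0.17 to 0.13; edgeR's quasi-likelihood test, Benjamini-Hochberg adjusted p = 0.786), and its sign changed in 3 of the alternative settings.

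PMAIP1 encodes NOXA, a member that binds MCL1 and is a target of p53 and of the stress factor ATF4. It lies at chr18:59899996-59904305 on the plus strand (ENSG00000141682). It had 151, 138 and 43 counts in WT and 95, 107 and 84 in the clone, or 5.51, 4.61 and 3.87 CPM against 3.87, 3.97 and 4.72 CPM. The groups overlapped, and the lowest WT and the lowest KO library were at nearly the same level. No change was detected (log2 fold change -0.22, 95% interval -0.50 to 0.07; edgeR's quasi-likelihood test, Benjamini-Hochberg adjusted p = 0.179). BBC3 and PMAIP1, both p53 targets, therefore differed in that the first passed the test and the second did not, with intervals that do not overlap.

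BIK, a member of the endoplasmic reticulum membrane, lies at chr22:43110750-43129712 on the plus strand (ENSG00000100290). It had 1, 1 and 0 counts in WT and 1, 4 and 3 in the clone, at or near the floor of 3 counts, so no fold was computed and a change was not detectable at this depth.

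Taken gene by gene, an exact two-sided permutation test of 3 against 3 libraries cannot give a p below 0.1, and BCL2L11, BBC3, HRK, BMF and BID each gave this smallest p = 0.1. The same exact test gave p = 0.6 for PMAIP1 and p = 0.7 for BAD. In 4 of 7 tested members all KO values lay above all WT values, as in 32.8% of all tested genes, and in 1 of 7 they lay below, as in 33.5%.

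The change in the family can also be read as a change in the order of abundance of the BH3-only mRNAs below the first rank. Levels of different genes are compared here as CPM per kb of exon, counting every annotated exonic base of a gene once. BAD was the most abundant member in both groups, at 14.6 ± 1.16 CPM per kb in WT and 14.1 ± 1.15 in the clone (SD, n = 3). BBC3 went from 3.31 ± 0.535 to 9.15 ± 0.515 CPM per kb and moved from rank 3 to rank 2, while BID went from 7.08 ± 0.0581 to 4.61 ± 0.150 and moved from rank 2 to rank 3. BCL2L11 went from 1.47 ± 0.124 to 4.44 ± 0.153 CPM per kb, from below PMAIP1 (2.13 ± 0.376 in WT, 1.92 ± 0.213 in the clone) to above it. In the clone BID and BCL2L11 were next to each other and differed by about their SDs, but with the length of the longest transcript in place of all exons they were at 8.17 ± 0.265 and 5.78 ± 0.200 CPM per kb, in the same order. HRK, BMF and BIK stayed at ranks 6, 7 and 8, at 0.537, 0.136 and 0.0245 CPM per kb in WT and 1.23, 0.246 and 0.125 in the clone.

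As a share of the summed BH3-only level per kb, BBC3 went from 11.3% to 25.5% and BCL2L11 from 5.03% to 12.4%, while BID went from 24.2% to 12.9% and BAD from 49.9% to 39.4%. The sum itself was 29.3 ± 1.45 CPM per kb in WT and 35.8 ± 0.654 in the clone (SD, n = 3). The summed survival genes were at 104 CPM per kb in both groups. The BH3-only sum was thus 28.1% ± 1.27 of the survival sum in WT and 34.4% ± 0.713 in the clone, a description of mRNA levels with no test. MCL1, the short-lived survival protein that PMAIP1 binds, made up most of the survival sum, at 83.5 and 86.4 CPM per kb.

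**Figure D2:**
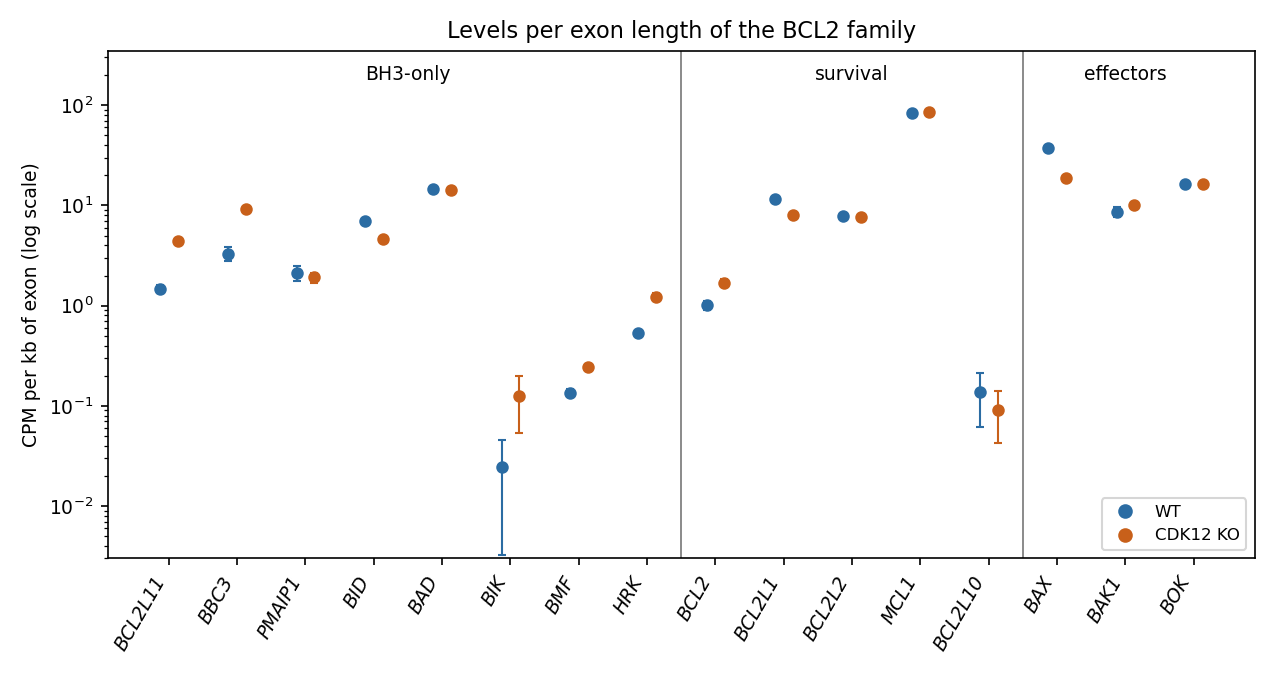
The y axis, on a log scale, is the level in CPM per kb of exon and the x axis lists the BH3-only, survival and effector genes with counts; points are means and bars SDs of 3 WT (blue) and 3 CDK12 KO (orange) libraries. BAD is the highest BH3-only gene in both groups, BBC3 passes BID in the clone, and MCL1 is the highest of all genes drawn.

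Among the proteins that BH3-only members bind, the survival genes showed no common direction. BCL2 rose (log2 fold change 0.74), from 11.4, 14.0 and 12.6 CPM in WT to 22.2, 19.5 and 22.5 CPM in the clone, and BCL2L1, the partner of HRK, fell by 0.52 on the log2 scale. MCL1 (0.05, edgeR adjusted p = 0.340 after Benjamini-Hochberg adjustment) and BCL2L2 (-0.03) did not pass the test, and BCL2A1 and BCL2L10 had too few reads. Of the 3 effectors, BAX fell by 0.98 on the log2 scale (SE 0.0527), from 94.0, 95.2 and 98.7 CPM to 47.9, 50.7 and 47.3 CPM. BAX was the most abundant effector per kb, at 37.1 ± 0.940 CPM per kb in WT and 18.8 ± 0.713 in the clone. Its change lay just short of the fold limit, which it passed when libraries were thinned to equal depth or KO replicate 2 was left out. BAK1 was at a log2 fold change of 0.18 (edgeR adjusted p = 0.0469 after Benjamini-Hochberg adjustment) and lost its call in 8 of 13 alternatives, among them when any 1 of WT replicates 1 and 3 and KO replicates 1 and 3 was left out. BOK was at -0.03. BCL2L11 and BBC3 thus rose in the same libraries in which the effector BAX fell.

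**Figure D3:**
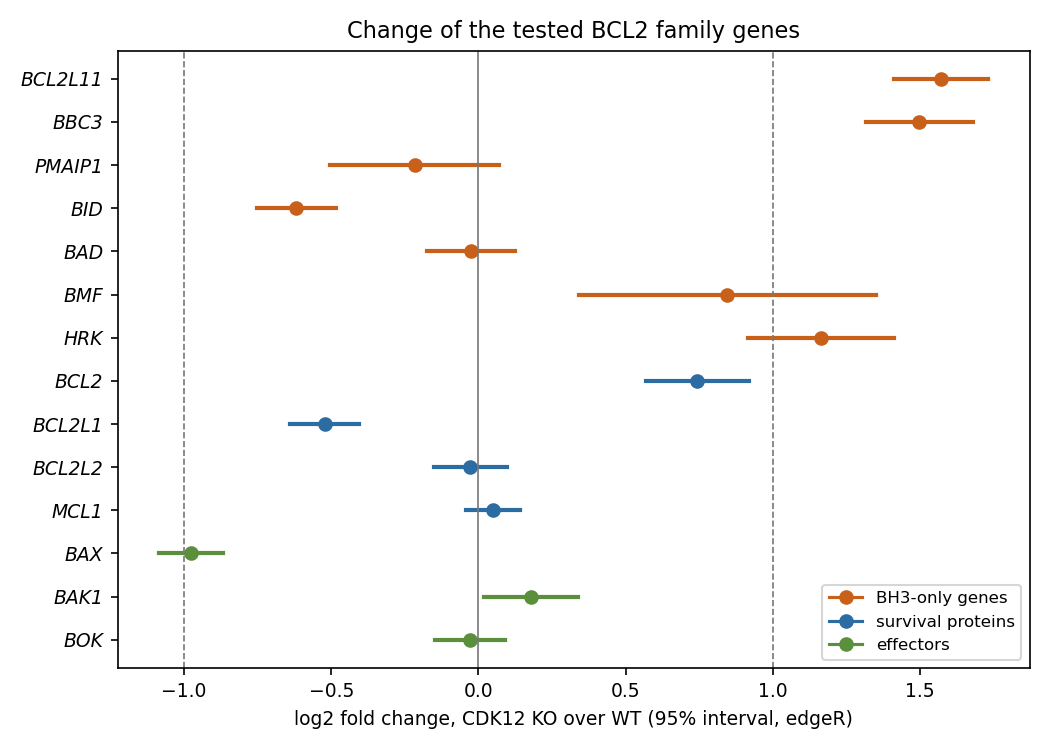
The x axis is the log2 fold change of CDK12 KO over WT, with points for edgeR's estimate and bars for its 95% interval, for 7 BH3-only, 4 survival and 3 effector genes; dashed lines mark the fold limits of 1 and -1. BCL2L11 and BBC3 lie wholly beyond 1, the bars of HRK and BMF cross it, and BAX lies at -0.98.

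Factors that bind BH3-only promoters or act upstream of them formed a list of 17 genes, of which 16 were tested. Of these 12 were higher and 3 were lower at an adjusted p under 0.05 (31.9% and 32.0% of all tested genes were), the median log2 fold change was 0.57, and past both limits 3 were up-regulated and 1 was down-regulated (8.30% and 7.73% of all tested genes were). JUN, the AP-1 subunit downstream of JNK, rose by a log2 fold change of 1.42 and ATF3, a stress-induced factor of the ATF family, by 1.15. NR3C1, the glucocorticoid receptor, which induces BCL2L11 in lymphoid cells, was counted no more than 3 times per WT library and reached 23.9 ± 0.591 CPM in the clone (SD, n = 3). This is at least 88.4-fold higher, taking 3 counts in the smallest WT library as the floor. Of the FOXO factors, which induce BCL2L11 when AKT signaling is low, FOXO1 fell by 1.14 on the log2 scale while FOXO3 (0.78) and FOXO4 (0.64) rose.

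The promoter of BCL2L11 is shown because it was the only one of the 7 member promoters found in the RefSeq table that held the FOXO motif. The 250 bases before the RefSeq start (GRCh38, chr2:111120664-111120913, plus strand) are given with the match in capitals.
BCL2L11 promoter: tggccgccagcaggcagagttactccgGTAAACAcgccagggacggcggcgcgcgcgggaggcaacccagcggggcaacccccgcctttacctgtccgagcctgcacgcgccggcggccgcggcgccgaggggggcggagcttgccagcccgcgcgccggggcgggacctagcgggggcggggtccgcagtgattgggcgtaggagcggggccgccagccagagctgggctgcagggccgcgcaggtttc

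The motif searched was GTAAACA on either strand, in 300 bases around each start, and 3.42% of 35116 promoters held it. That share covers every listed start, while other starts of the members were not examined singly. The AP-1 motif (TGACTCA, which reads TGAGTCA on the other strand) was in the BBC3 promoter and in no other member, and in 4.95% of all promoters. That RefSeq start of BBC3 lies 1468 bases from the start of its MANE Select transcript. Motifs of E2F, CRE, CHOP-ATF4 and the glucocorticoid receptor matched no member within these windows. The motifs were chosen after the values were seen, and a match is a run of letters and not a bound site. The promoter window of BCL2L11 held 39 CpG dinucleotides and that of BBC3 held 5, where the median of all promoters was 14.

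The other p53 targets, listed beside BBC3 and PMAIP1, had 16 tested members of 17, of which 12 were higher and 1 was lower at an adjusted p under 0.05 (31.9% and 32.0% of all tested genes), with a median log2 fold change of 0.35. SESN2, a stress-induced regulator of metabolism, rose by a log2 fold change of 1.30 and FAS, a death receptor, by 4.24. These were the 2 genes of the list past both limits. CDKN1A, the p53-induced cell cycle inhibitor, was at 0.34 and MDM2, the ligase that degrades p53, at 0.55. The estimate for BBC3 (1.50) was above those of 15 of the 16 tested genes of that list, and that for PMAIP1 (-0.22) was below all 16. The place of PMAIP1 depended on the setting. With thinned libraries its estimate was -0.08, above the range of TIGAR (-0.25 to -0.15) over 13 alternatives.

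Of 21 genes that modify BH3-only proteins or hold them in place, 7 were higher, 7 were lower and 7 passed in neither direction, with a median log2 fold change of -0.03. These counts are near the shares of all tested genes, 31.9% higher and 32.0% lower. PIM1, a kinase that phosphorylates BAD, was the only one past both limits and fell by 3.28 on the log2 scale. Among the other regulators of BAD, AKT1 fell by 0.43 on the log2 scale and YWHAZ, a 14-3-3 protein, by 0.52, while PRKACA and PPP3CA, a kinase and a phosphatase of BAD, rose by 0.72 and 0.85. AKT2 (-0.05) and the phosphatase PPP2CA (0.096) did not pass the test. The kinase RPS6KA1 was higher (0.16), but lost its call without WT replicate 3 and without KO replicate 2. MAPK3, which marks BIM for degradation, fell by 0.45 on the log2 scale, and MAPK8, the kinase JNK1, rose by 0.60. These are mRNA levels and give no measure of phosphorylation.

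A list of the death receptor input to BID and its control held 8 genes, of which 6 were tested. At an adjusted p under 0.05, 3 were higher and 0 were lower, beside 31.9% and 32.0% of all tested genes. The 3 were FAS, TNFRSF1A and CFLAR, of which CFLAR is a regulator of caspase-8. FAS was the only one past both limits, and CASP8, which cleaves BID, was at 0.04 and did not pass. BID therefore fell in the same libraries in which FAS, upstream of it, rose. At the mitochondria and downstream of them, 13 genes were tested, and 2 were higher and 6 were lower where 31.9% and 32.0% of all tested genes were. APAF1, the scaffold of the apoptosome, fell by 1.43 on the log2 scale as the only one past both limits. A further list, written by hand, held 9 genes outside the classic family, entered for a BH3 motif that was not searched for here. Of its 8 tested members 0 were higher and 5 were lower, beside the same shares of all genes. SOX15, a transcription factor in that list, fell by 1.40 on the log2 scale, past both limits.

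**Figure D4:**
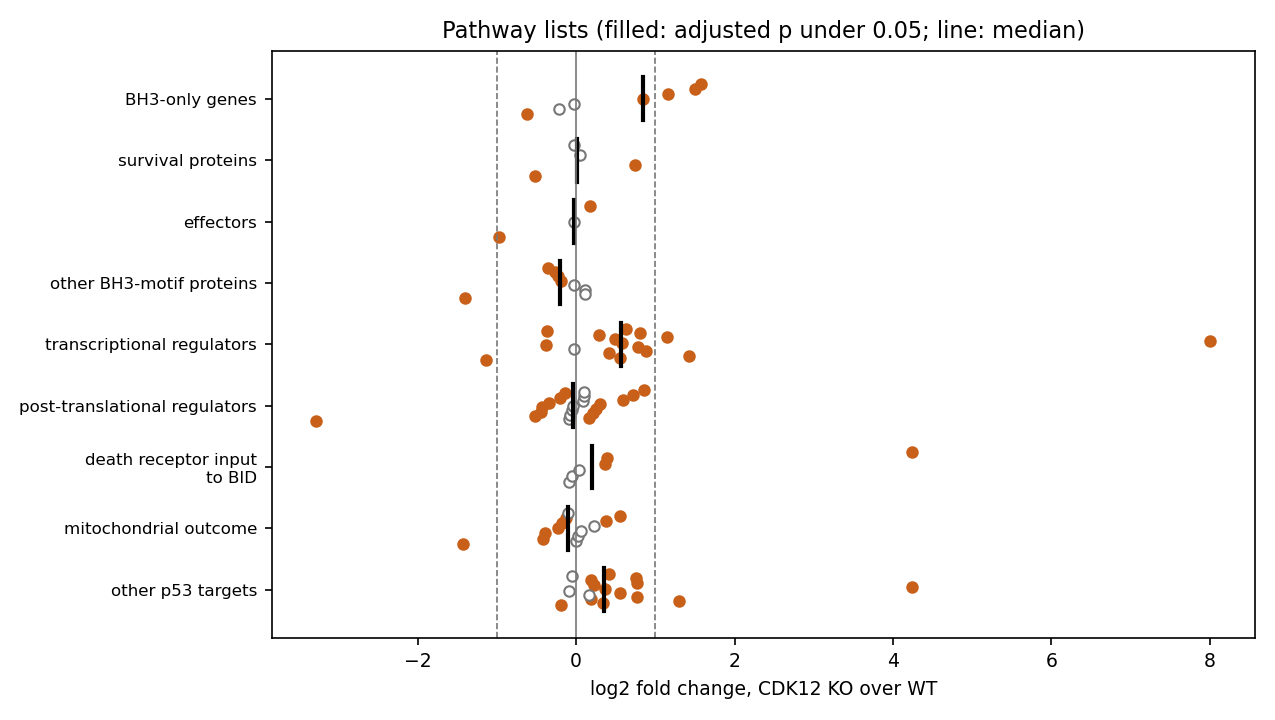
Each point is a tested gene, the x axis is the log2 fold change of CDK12 KO over WT and the rows are the BH3-only genes and 8 pathway lists; filled points have an adjusted p under 0.05 and black lines are medians. The medians of the BH3-only genes (0.85) and of the transcriptional regulators (0.57) lie farthest to the right, and the point near 8 is NR3C1, whose fitted value depends on WT counts of at most 3.

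The genes next to the members on the chromosome were examined because position was not used to choose the members. Over the 5 nearest tested genes on each side of each member, 80 in all, 5 were up-regulated, 8 were down-regulated and the median log2 fold change was -0.05, where 8.30% and 7.73% of all tested genes were up- and down-regulated. These counts are near the shares of all genes. The neighbors of BCL2L11 had a median of -0.34. BCL2L11 lies inside MIR4435-2HG, a non-coding RNA gene on the opposite strand that fell by 0.86 on the log2 scale, from 2813 counts over the WT libraries to 1571 over the KO libraries. The library kit keeps the strand, but the strand setting of the counting is not given in the sources used here, so reads of such overlapping genes may be shared. On the other side the nearest tested gene was the pseudogene ENSG00000227992, which fell by 1.28 on the log2 scale. MERTK, a receptor tyrosine kinase that takes part in clearing dead cells, 730 kb beyond BCL2L11, rose by a log2 fold change of 3.07, from 26.6 to 224 CPM.

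The neighbors of BBC3 had a median of -0.14, and none was up-regulated. Its nearest tested genes, SAE1 (10.2 kb away) and CCDC9 (23.2 kb away), fell by 0.15 and 0.34 on the log2 scale, while NPAS1 and MEIS3 farther away fell by 2.02 and 1.29. For HRK the nearest genes were RNFT2 (2.51 kb away, log2 fold change -0.06, not past the test) and FBXW8 (29.5 kb away, 0.39, past the p limit). NOS1, the neuronal nitric oxide synthase, 327 kb from HRK, had at most 3 counts in any WT library and 6.17 ± 0.408 CPM in the clone (SD, n = 3), which is at least 22.9-fold higher against a floor of 3 counts in the smallest WT library. The tested genes directly next to BCL2L11, BBC3 and HRK thus had a smaller or opposite change, while MERTK and NOS1 farther out changed more than the member in the same direction.

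Some of the nearest tested genes of the other members lay far away. RNF152 and TNFRSF11A, 1904 and 2421 kb from PMAIP1, fell by 2.68 and 1.35 on the log2 scale. A4GALT and SCUBE1, 389 and 67.6 kb from BIK, fell by 1.38 and 1.66, and FSIP1, 305 kb from BMF, by 1.03. TMEM121B (1.79) and ENSG00000225335 (1.10), 613 and 302 kb from BID, and CCDC9B (1.54), 223 kb from BMF, were up-regulated. FSIP1 and ENSG00000225335 lost one of the limits when 1 library was left out, FSIP1 for WT replicate 3 and KO replicates 1 and 3, and ENSG00000225335 for WT replicate 3 and KO replicate 2. CCDC9B did so without WT replicate 2. FSIP1 also lost a limit with thinned libraries, and ENSG00000225335 with DESeq2. Levels were low for TNFRSF11A, ENSG00000225335 and CCDC9B, with means of 0.878, 0.293 and 0.305 CPM in WT and 0.313, 0.684 and 0.763 CPM in the clone. BAD had no neighbor past both limits and overlaps GPR137 on the opposite strand (0.28). BID, which fell, lies 3.28 kb from BCL2L13, a mitochondrial member of the wider BCL2 family, which fell by 0.35 on the log2 scale.

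**Figure D5:**
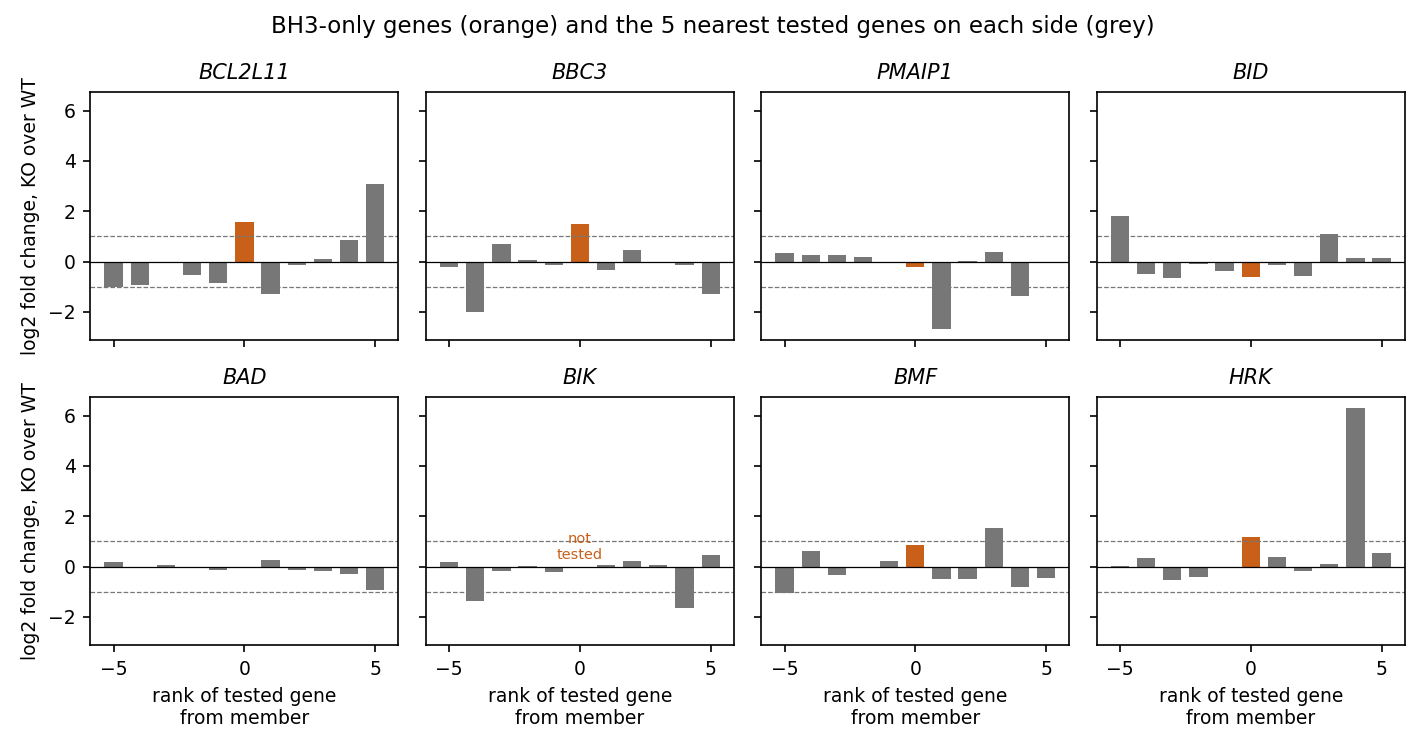
Each panel shows 1 BH3-only gene (orange bar, at 0 on the x axis) and the 5 nearest tested genes on each side (grey bars, by rank along the chromosome), with the log2 fold change of CDK12 KO over WT on the y axis and dashed lines at 1 and -1. The orange bars of BCL2L11, BBC3 and HRK stand above the bars at ranks 1 and -1, while MERTK at rank 5 stands above BCL2L11 and NOS1 at rank 4, a fitted value against WT libraries at the floor, stands above HRK.

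The tested genes whose pattern over the 6 libraries was most like that of each up-regulated member were ranked by the root mean square difference of log2 CPM after centring on the WT mean. For BCL2L11 these were BAZ2B-AS1 (0.0548), H1-2 (0.0551) and SMAGP (0.0554). BBC3 was nearest to NR2F2 (0.0785), CFAP70 (0.0841) and RYR1 (0.0855), and HRK to ALDH6A1 (0.0359), MGAT4A (0.0525) and NMNAT2 (0.0602). None of these 9 genes belongs to the BCL2 family, and the 6 points that each likeness rests on are 2 groups of 3 libraries.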

How the data were processed

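RNA-seq was done with a strand-keeping kit and single-end reads. Groups were taken from the genotype label of each library. The authors deposited raw counts per gene, which the labels and the study's methods describe as made with FastQC, STAR (GRCh38) and HTSeq; versions, annotation release and strand setting are not given in the sources used here. Symbols, positions and exon lengths came from GENCODE 44 (GRCh38; 56321 of 60483 identifiers matched), promoters from RefSeq.

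Genes were filtered with filterByExpr (minimum count 10, total 15), scaled by TMM and tested with edgeR 4.0.16 (R 4.3.3; quasi-likelihood, two-sided, Benjamini-Hochberg over 16198 genes). Methods were tested on simulated data. The exact permutation test used log2(CPM + 0.01). Alternatives were voom/limma 3.58.1 (the study's tool), DESeq2 1.42.0, other scalings and filters, thinning, a test against the fold limit, another exon length, and leaving out each library. Intervals of fold changes come from the edgeR fit, and floors cover counting error only, as reads carry no molecular identifiers. CPM are counts per 1000000 counted reads, with TMM-corrected library sizes.

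The members and gene lists were chosen with earlier results of these data known. Named genes were all members, list genes and neighbors past both limits, the nearest neighbors of called members, the most abundant survival and effector gene, and the 3 most similar genes per called member. FOXO3, FOXO4, and the regulators of BAD and BIM beside PIM1 were named after their values were seen. So were CASP8, CFLAR, TNFRSF1A, CDKN1A, MDM2, TIGAR, and the remaining survival and effector genes.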

Additional observations from a re-analysis of the deposited data

How the results depend on the processing

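Over 13 alternatives the log2 fold changes stayed at 1.53 to 1.65 for BCL2L11, 1.33 to 1.61 for BBC3, 1.10 to 1.21 for HRK and -0.64 to -0.54 for BID, and BMF lay at 0.78 to 1.36 over the 12 in which it was tested. The number of up-regulated members was 3 except for 4 with thinned libraries or by adjusted p alone and 2 in the test against the fold limit; that of down-regulated members was 1 by adjusted p alone. BAD turned positive with upper-quartile scaling (0.0029), without WT replicate 3 (0.013) and without KO replicate 3 (0.0341), and over all single-library omissions lay between -0.0849 and 0.0341. Down-regulated effectors numbered 0 to 1 when 1 library was left out and 1 with thinned libraries. With 10 counts required in every library, 568 genes were up-regulated and 684 down-regulated, against 1345 and 1252, since fewer genes were tested; up-regulated neighbors then numbered 2 (3 with thinned libraries) and down-regulated ones 4. With the longest transcript as length, the BH3-only sum was 31.8% of the survival sum in WT and 38.5% in the clone. No scaling moved the median of all genes by more than 0.028. No paired analysis was possible because the labels pair no WT library with a KO library. Counts of BMF and BIK limit what this depth can show.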
